A study of Mus musculus with 8 samples.

Results

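The CC chemokines of macrophages are small secreted proteins that draw leukocytes to a site of inflammation. They were followed as the 9 genes Ccl2, Ccl3, Ccl4, Ccl5, Ccl6, Ccl7, Ccl8, Ccl9 and Ccl12, chosen by symbol, and all 9 were found among the 54532 gene rows of the count table. RNA came from macrophages of the mouse peritoneal cavity after thioglycollate broth, an irritant that recruits leukocytes into the cavity. Every library shared this tissue, cell type and stimulus. The M libraries were 3 wild-type ones, M_WT_5643, M_WT_6258 and M_WT_6255, and 3 knockout ones, M_KO_5944, M_KO_5645 and M_KO_5642. A further pair was F_WT_5638 and F_KO_5639, with 1 library per genotype. The gene knocked out is Men1, and the labels do not say what the letters M and F stand for. The title of each library carries its own animal number, which was read as 1 animal per library. The labels used here do not state strain, age, the Men1 allele or a Cre driver.

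CC chemokines carry a pair of adjacent cysteines and signal through G protein-coupled receptors on leukocytes. Ccl3, Ccl4 and Ccl5 draw monocytes and T cells, and Ccl3 and Ccl5 are ligands of CCR1. Ccl2, Ccl7 and Ccl12 are ligands of CCR2, the receptor by which monocytes leave the bone marrow and enter inflamed tissue. Mouse Ccl8 is grouped with these by sequence but acts mainly on CCR8. Ccl6 and Ccl9 are rodent chemokines that act on CCR1 and are made constitutively by many myeloid cells. Macrophages induce Ccl2, Ccl3, Ccl4, Ccl5 and Ccl7 through NF-kB, and Ccl5 also through interferon-regulated factors. Men1 encodes menin, a scaffold of histone methyltransferase complexes.

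All 9 genes lie on chromosome 11 (GRCm38) in 2 groups. Ccl2 (82035571 to 82037453), Ccl7 (82045712 to 82047525), Ccl12 (82101845 to 82103400) and Ccl8 (82115185 to 82116799) are on the plus strand within 81229 bases, with Ccl11 between them. Ccl5 (83525778 to 83530518), Ccl9 (83572919 to 83578636), Ccl6 (83587882 to 83593087) and Ccl3 (83647844 to 83649355) are on the minus strand. Ccl4 (83662584 to 83664683) follows on the plus strand, and the group spans 138906 bases. Ccl6 lies inside the span of E230016K23Rik, a transcript on the other strand with 340 counts over all 8 libraries, so a few counts could belong to either gene if strand was not used.

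RefSeq promoter windows (GRCm38.p6, 250 bases before to 50 after the start) were at hand for 5 of the 9 genes: Ccl3, Ccl6, Ccl8, Ccl9 and Ccl12. The windows of Ccl3 and Ccl9 are shown because Ccl3 was lower in every KO library, while Ccl9, in the same group of genes, overlapped between genotypes. Both are on the minus strand and are written 5′ to 3′ in the direction of the gene, Ccl3 at chr11:83649329-83649628 and Ccl9 at chr11:83578587-83578886. Capitals mark matches to a TATA box (TATAA), C/EBP (TTNNGNAA), AP-1 (TGANTCA) or the kappaB consensus of NF-kB, on either strand.
Ccl3: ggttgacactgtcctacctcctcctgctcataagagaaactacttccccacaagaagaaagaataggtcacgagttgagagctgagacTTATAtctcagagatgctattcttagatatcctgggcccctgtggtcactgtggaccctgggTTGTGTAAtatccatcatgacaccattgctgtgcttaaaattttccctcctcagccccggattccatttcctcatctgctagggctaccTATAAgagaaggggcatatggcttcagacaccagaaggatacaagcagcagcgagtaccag
Ccl9: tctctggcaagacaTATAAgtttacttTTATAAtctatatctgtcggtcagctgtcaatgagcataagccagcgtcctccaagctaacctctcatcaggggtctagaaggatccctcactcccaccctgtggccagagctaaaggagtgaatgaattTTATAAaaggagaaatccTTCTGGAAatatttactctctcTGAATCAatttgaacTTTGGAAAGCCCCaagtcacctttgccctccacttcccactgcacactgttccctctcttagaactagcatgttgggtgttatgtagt

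The Ccl9 window held 1 kappaB match, GGGGCTTTCC on the opposite strand, which overlaps a C/EBP match and is 1 unbroken run of capitals with it. It also held an AP-1 site, TGAATCA, which reads as a match on both strands. Over 32817 promoter windows of this length, 4.5% held a kappaB match, 7.81% an AP-1 match, 40.7% a C/EBP match and 24.9% a TATAA. The Ccl3 window held 1 C/EBP match (TTGTGTAA), 2 TATAA matches and no kappaB or AP-1 match. An interferon-stimulated response element (in 3.43% of all windows) was in none of the 5 member windows. These are letter matches in a short window and do not show where a factor binds.

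Libraries held 18206427 to 22853583 counts, and a count of 0 would allow up to 3 counts, or 0.119 to 0.170 CPM, the count scaled to library size by TMM over all 8 libraries, depending on the library. Such floors cover counting error only. Spearman correlations across genes between libraries were 0.949 to 0.988, and no library stood apart in depth. Men1 was lower in every KO library: it was at 25.9, 17.2 and 21.5 CPM in M_WT_5643, M_WT_6258 and M_WT_6255 and at 8.18, 6.52 and 8.34 CPM in M_KO_5944, M_KO_5645 and M_KO_5642. F_WT had 17.995 CPM and F_KO 11.8 CPM of Men1. DESeq2 called Men1 (adjusted p = 4.76e-06) and edgeR did not (log2 fold change -1.49, SE 0.21, adjusted p = 0.272). All 7 macrophage markers, Csf1r and Adgre1 among them, had counts in all 8 libraries. The summed marker level was 17294 to 25489 CPM in M_WT and 14476 to 16899 CPM in M_KO, with Lyz2 giving most of it. Csf1r went the other way without overlap, at 1236 to 1558 CPM in M_WT and 1829 to 2075 CPM in M_KO. It was at 1484 CPM in F_WT and 1953 in F_KO. Of the 13646 genes tested, 8.99% had no overlap with M_KO higher. Being bulk RNA, these counts cannot tell fewer cells of a type from less RNA per cell.

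Compared per length, as the deposited FPKM, the 9 chemokines fell into 4 levels by their medians. Ranges over the libraries overlapped between these levels as well, and only Ccl8 and Ccl12 stayed apart from the rest. Ccl6 and Ccl9 were highest, with medians of 664 and 491 FPKM over the 8 libraries (531 to 1682 and 271 to 649 FPKM). Their ranges overlap, but in FPKM Ccl6 was above Ccl9 in every library. By CPM, which is not scaled to gene length, their order differed between libraries. Ccl3, at 89.5 to 421 FPKM (median 218), and Ccl4, at 69.1 to 441 FPKM (median 143), came next, also with overlapping ranges. Ccl2 (median 51.2, range 26.6 to 192 FPKM), Ccl5 (median 47.9, range 6.12 to 302 FPKM) and Ccl7 (median 39.2, range 18.7 to 166 FPKM) were lower and overlapped one another. Ccl8 and Ccl12 stayed at or below 2.67 and 1.79 FPKM. Together the 9 genes took 0.381% ± 0.119 of all counts in M_WT and 0.343% ± 0.160 in M_KO (SD, n = 3 each), a difference smaller than the spread between libraries.

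**Figure D1:**
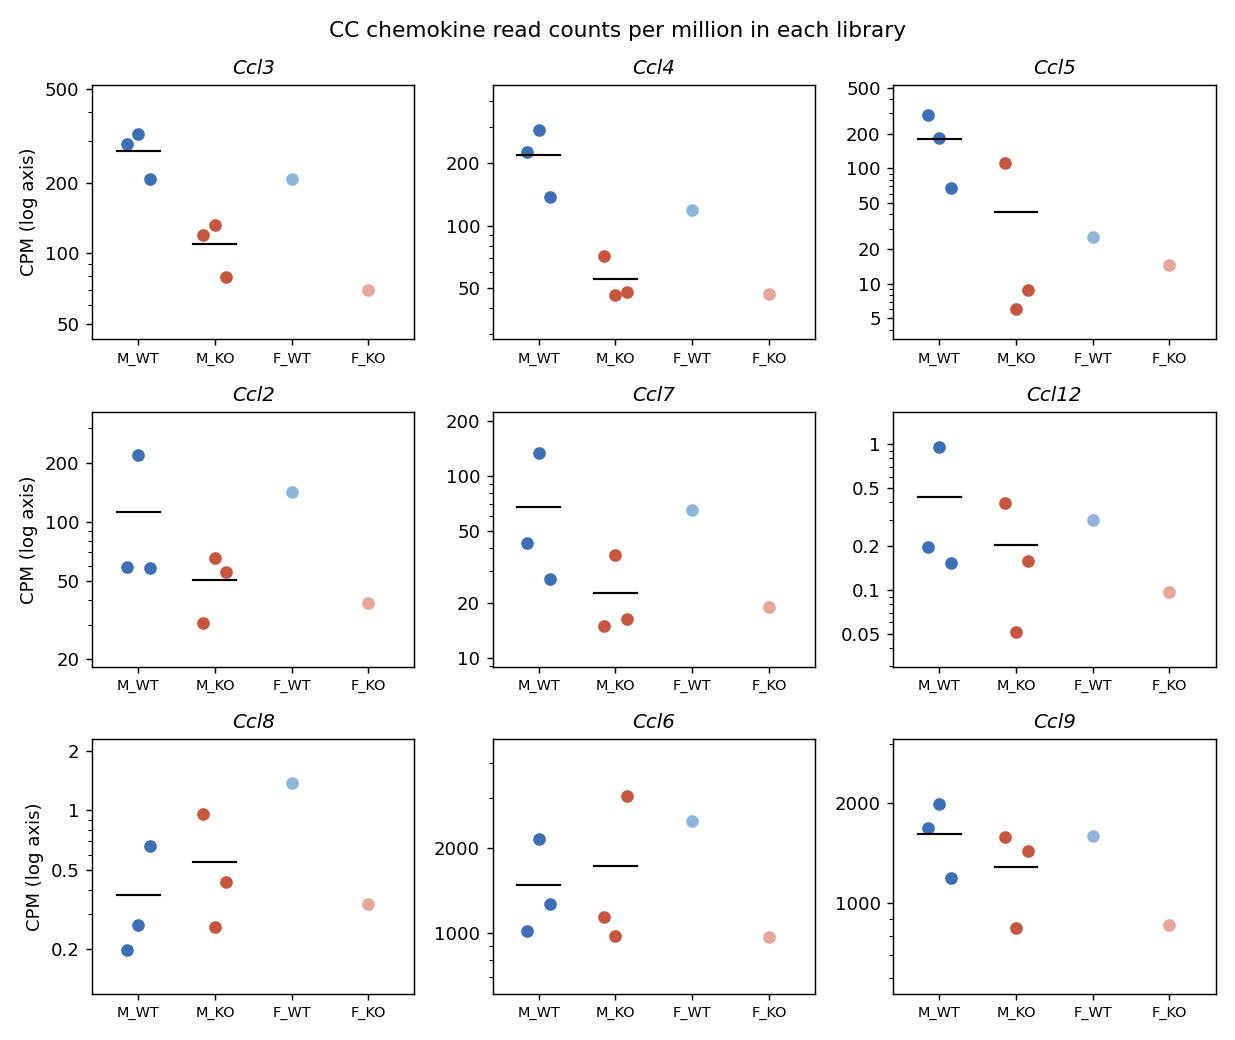
Each panel shows 1 chemokine gene, with CPM on a log axis, a point for every library and a bar at the mean of the 3 M_WT or 3 M_KO libraries. For Ccl3 and Ccl4 every M_KO point is below every M_WT point and F_KO is below F_WT, while the M groups overlap in the other 7 panels.

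Ccl3 and Ccl4 were the members that separated the genotypes. Ccl3 was at 292 CPM in M_WT_5643, 323 in M_WT_6258 and 207 in M_WT_6255, against 119 in M_KO_5944, 131 in M_KO_5645 and 79.5 in M_KO_5642. Ccl4 was at 227, 291 and 138 CPM in the same M_WT libraries and at 71.6, 46.6 and 47.8 CPM in the same M_KO libraries. Each M_KO library therefore lay below the lowest M_WT library for both genes. Of the 13646 genes tested, 7.14% had M libraries that did not overlap with M_KO lower and 8.99% with M_KO higher. Among the 7 tested members, 2 were in the former class and 0 in the latter.

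The means of Ccl3 were 274 ± 59.7 CPM in M_WT and 110.1 ± 27.1 CPM in M_KO (SD, n = 3 each), and the M_KO mean was 40.2% of the M_WT mean. Those of Ccl4 were 219 ± 76.7 and 55.3 ± 14.1 CPM (SD, n = 3 each), and the M_KO mean was 25.3% of the M_WT mean. By edgeR's quasi-likelihood test the log2 fold changes were -1.32 (SE 0.24) for Ccl3 and -1.99 (SE 0.31) for Ccl4. Their adjusted p-values of 0.322 and 0.294, adjusted over all genes tested, did not pass the threshold of 0.05. DESeq2 called both, with adjusted p = 0.000865 for Ccl3 and 2.57e-06 for Ccl4. The authors' deposited table also calls both, at log2 -1.32 (adjusted p = 0.00268) and -1.98 (adjusted p = 2.07e-06). It calls no other member, against 0.281% of its 23513 rows called lower and 0.272% called higher. For each gene an exact permutation test (two-sided, 3 against 3) returned p = 0.1, the lowest p that 3 libraries per group can reach.

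EdgeR called 0 of the 7 tested members, and 3 of them (Ccl3, Ccl4 and Ccl7) were lower at an unadjusted p under 0.05. The background was 0.022% of genes called by edgeR, and at an unadjusted p under 0.05 it was 4.42% lower and 5.47% higher. DESeq2 called 2 of the 9 members, both lower in M_KO, against 0.536% of 16603 genes called lower and 0.554% called higher. Without M_WT_6258 the DESeq2 call of Ccl3 was lost (log2 fold change -1.20, adjusted p = 0.0584), while that of Ccl4 held without any 1 of the 6 M libraries (adjusted p from 2.43e-09 to 0.000717).

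The F pair showed the same direction for both genes, as values with no replicate check. Ccl3 was at 207 CPM in F_WT and 69.6 in F_KO, a ratio of 0.335 (95% interval 0.316 to 0.356, exact Clopper-Pearson, counting error only). Ccl4 was at 119 CPM in F_WT and 46.7 in F_KO, a ratio of 0.391 (0.363 to 0.421). Over all 8 libraries the 4 KO values of Ccl3 and of Ccl4 lay below the 4 WT values, and the other 7 members overlapped. Over all genes tested, 2.35% had KO libraries below WT libraries in this way and 3.33% had them above.

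Marker genes of other cell types known to make Ccl3 and Ccl4 were counted in the same libraries. The 7 T and NK cell markers summed to 0.0395 to 0.908 CPM over the 6 M libraries, and none of the 7 had counts in all 8 libraries. The 6 mast cell and basophil markers summed to 1.28 to 14.1 CPM in M_WT and 0 to 20.4 CPM in M_KO, with Mcpt8 at 0 in every library. M_KO_5642 had no count of any mast cell or basophil marker, and M_KO_5944 had the highest sum. The part of mast cells and basophils in the levels of Ccl3 and Ccl4 was not tested. The 5 B cell markers had higher sums that overlapped, 72.4 to 203 CPM in M_WT and 105 to 304 CPM in M_KO. They summed to 217 CPM in F_WT and 352 in F_KO, and the part of B cells was not tested. The sum of the 5 dendritic cell markers separated the M groups, at 14.5 to 30.6 CPM in M_WT and 8.29 to 11.9 CPM in M_KO, with 14.5 CPM in F_WT and 12.3 in F_KO. Cd209a, a lectin of monocyte-derived dendritic cells, gave 15.3 and 14.5 CPM of this in M_WT_6258 and M_WT_6255 and was at 0.16 CPM or less elsewhere. Without Cd209a the sum of the other 4 overlapped, at 10.9 to 15.2 CPM in M_WT and 8.23 to 11.9 CPM in M_KO. Of these 4, Zbtb46 alone separated the M groups, at 7.82 to 11.1 CPM in M_WT and 5.34 to 7.55 CPM in M_KO. In the F pair Zbtb46 was at 6.86 CPM in F_WT and 10.3 in F_KO. Those 4 summed to 14.4, 15.2 and 10.9 CPM in M_WT_5643, M_WT_6258 and M_WT_6255, the order of Ccl3 and Ccl4 there. In M_KO_5944, M_KO_5645 and M_KO_5642 they summed to 8.23, 10.7 and 11.9 CPM, an order that neither Ccl3 nor Ccl4 had. The part of dendritic cells in the difference of Ccl3 and Ccl4 was not tested.

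**Figure D2:**
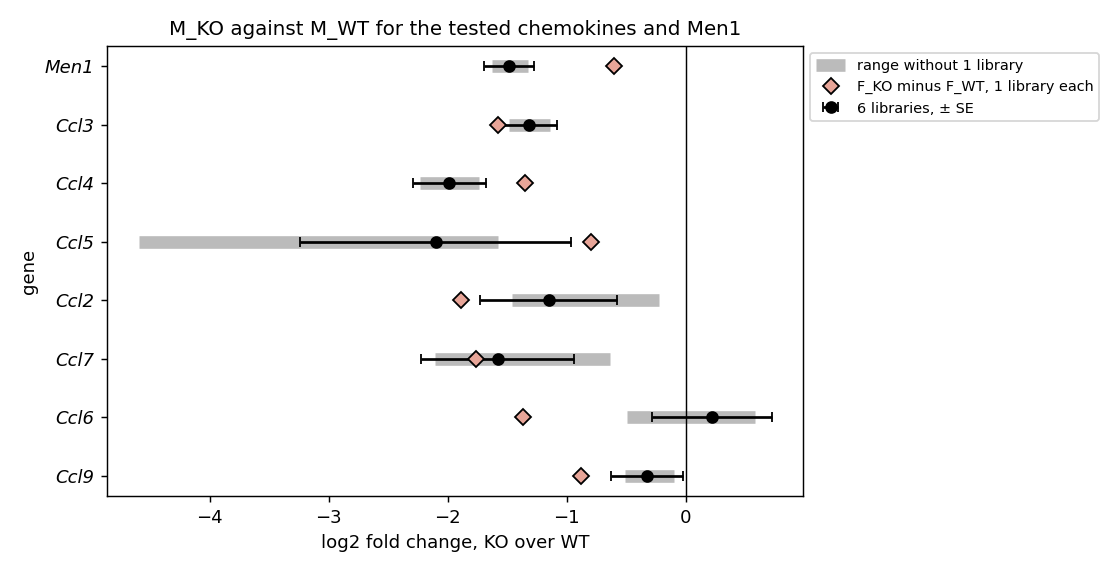
Log2 fold changes of M_KO over M_WT from edgeR are black points with bars of ± 1 SE, grey bands run over the values with each of the 6 M libraries left out in turn, and diamonds give F_KO minus F_WT with 1 library each. Ccl3 (-1.49 to -1.14) and Ccl4 (-2.23 to -1.74) have narrow bands, as do Ccl9 (-0.51 to -0.097) and Men1 (-1.63 to -1.33). The bands of Ccl5, Ccl2, Ccl7 and Ccl6 are wide, and that of Ccl6 crosses 0.

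Ccl5, also known as RANTES, a chemokine of T cells, monocytes and eosinophils, was the most variable member among those with more than a few counts. It was at 290 CPM in M_WT_5643, 184 in M_WT_6258 and 67.7 in M_WT_6255. In M_KO it was at 112 CPM in M_KO_5944 but at 6.0 in M_KO_5645 and 8.85 in M_KO_5642. One M_KO library thus lay inside the M_WT range and the other two far below it, and over all 8 libraries the highest value was 48.3 times the lowest. The means were 181 ± 111 CPM in M_WT and 42.2 ± 60.3 CPM in M_KO (SD, n = 3 each). The edgeR log2 fold change was -2.10 (SE 1.14, adjusted p = 0.575) and the DESeq2 adjusted p was 0.684. Without M_KO_5944 the edgeR log2 fold change was -4.60 (adjusted p = 0.107) and DESeq2 called Ccl5 (adjusted p = 3.34e-14). F_WT, at 25.5 CPM, and F_KO, at 14.6 CPM, were both below every M_WT library.

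The levels of Ccl5 were set beside those of 10 interferon-stimulated genes (Irf7, Isg15, Ifit1, Ifit2, Ifit3, Rsad2, Cxcl10, Usp18, Mx1 and Oasl1), which cells switch on in response to interferon. Of these 10, all had a lower fitted value in M_KO, as did 6617 of the 13646 genes tested. EdgeR and DESeq2 called 0, and 4 were lower at an unadjusted p under 0.05 (edgeR), against 4.42% of genes tested. The authors' deposited table calls Oasl1 (adjusted p = 0.0370) and Cxcl10 (adjusted p = 0.0450) lower, and no other gene of the list. It calls 0.281% of its rows lower. Their median log2 fold change was -1.84, against 0.01 over all genes tested. The mean of the list, in log2 CPM centred on the 6 M libraries, stood at 1.94, 1.55 and 0.55 in M_WT_5643, M_WT_6258 and M_WT_6255. It stood at 0.81 in M_KO_5944 but -2.85 and -2.0 in M_KO_5645 and M_KO_5642, and -0.92 and -1.06 in F_WT and F_KO. Ccl5 ranked the libraries as the list mean did at 8 of 8 places, whereas Ccl4 did so at 1 of 8 and Ccl3 at 2 of 8. Ccl4 was nonetheless near the list order, within 1 rank of it in 7 of 8 libraries and at most 2 ranks away. In M_KO_5944, Ccl5 was inside the M_WT range, and Ccl3 and Ccl4 were below it. Of the 10 listed genes, 2 also had every M_KO library below every M_WT library, against 7.14% of genes tested. These were Irf7 (117 CPM in M_KO_5944, 154 in M_WT_6255) and Oasl1 (108 and 170 CPM). The part of interferon in the levels of Ccl5, Ccl3 and Ccl4 was not tested.

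**Figure D3:**
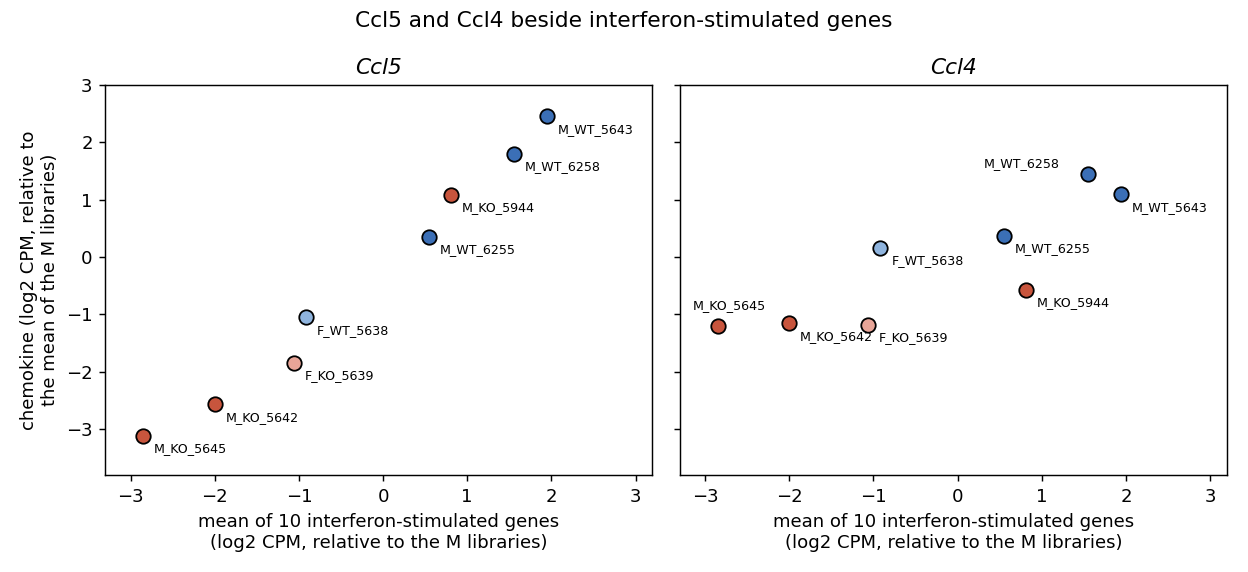
Each point is 1 library, the horizontal axis is the mean log2 CPM of 10 interferon-stimulated genes and the vertical axis that of Ccl5 (left) or Ccl4 (right), both relative to the mean of the 6 M libraries. Ccl5 places M_KO_5944 (1.08) above M_WT_6255 (0.35), as the mean of the interferon-stimulated genes does. Ccl4 keeps every KO library below every WT library.

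The monocyte attractants Ccl2 and Ccl7 were highest in M_WT_6258 and next highest in F_WT, and overlapped between the M groups. Ccl2, the main CCR2 ligand, was at 58.7, 219 and 58.6 CPM in M_WT_5643, M_WT_6258 and M_WT_6255. It was at 30.4, 65.5 and 55.9 CPM in M_KO_5944, M_KO_5645 and M_KO_5642. M_KO_5645 thus had more Ccl2 than 2 of the 3 M_WT libraries, and the groups overlapped. The log2 fold change of -1.15 (SE 0.57, edgeR adjusted p = 0.550) was -0.22 without M_WT_6258. DESeq2 did not call it (adjusted p = 0.436).

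Ccl7, which also binds CCR2, was at 42.7, 133 and 27.2 CPM in the same M_WT libraries and at 15.05, 36.7 and 16.4 CPM in the same M_KO libraries. Its groups overlapped as well, through M_KO_5645 and M_WT_6255. The log2 fold change of -1.58 (SE 0.64, edgeR adjusted p = 0.494, unadjusted p = 0.0444) was -0.63 without M_WT_6258. In the F pair the ratio of F_KO to F_WT was 0.270 for Ccl2 (143 and 38.6 CPM) and 0.293 for Ccl7 (65.1 and 19.1 CPM), lower than those of Ccl3 and Ccl4 (1 library each).

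Ccl12 and Ccl8 were near the limit of detection and did not pass edgeR's filter on low counts. Ccl12 had 4, 18 and 3 counts in M_WT_5643, M_WT_6258 and M_WT_6255 and 7, 1 and 4 counts in M_KO_5944, M_KO_5645 and M_KO_5642, with its highest count in the library that was highest for Ccl2 and Ccl7. Ccl8 had 4, 5 and 13 counts in M_WT and 17, 5 and 11 in M_KO in the same order, and 32 and 7 in F_WT and F_KO. DESeq2, which kept both, gave log2 fold changes of -1.13 (SE 1.14) for Ccl12 and 0.54 (SE 0.86) for Ccl8. Neither standard error leaves a direction to report at this depth.

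Ccl3 and Ccl4 were then set against the monocyte attractants within each library, as the summed CPM of Ccl3 and Ccl4 over that of Ccl2, Ccl7 and Ccl12. This ratio was 5.11 in M_WT_5643, 1.74 in M_WT_6258 and 4.02 in M_WT_6255, and 4.16 in M_KO_5944, 1.74 in M_KO_5645 and 1.76 in M_KO_5642. It was 1.57 in F_WT and 2.01 in F_KO. The groups overlapped over nearly the whole range: M_KO_5944 was above M_WT_6255, and M_WT_6258 was level with M_KO_5645 and M_KO_5642. On the log2 scale the means were 1.72 ± 0.82 and 1.22 ± 0.72 (SD, n = 3 each), a difference of -0.50 that is smaller than the spread of 0.77 between libraries, and no test was made of this ratio of chosen genes. The ratio of Ccl4 to Ccl2 alone differed by -1.03 on the log2 scale, with group SDs of 0.77 in M_WT and 0.93 in M_KO. This difference is larger than its spread of 0.855 between libraries, but the groups overlapped. The ratio was 1.33 to 3.87 in M_WT and 0.711 to 2.35 in M_KO, and it was not tested. So Ccl3 and Ccl4 separated the genotypes as levels and not relative to Ccl2 and Ccl7, which dominate the other sum, and a different response of the 2 groups of genes was not shown.

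**Figure D4:**
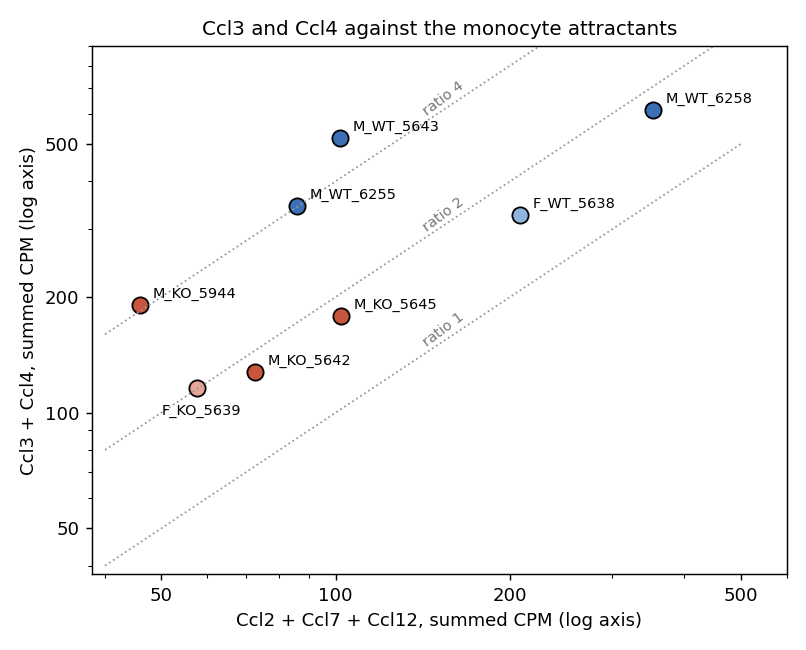
Each point is 1 library, with the summed CPM of Ccl2, Ccl7 and Ccl12 on the horizontal and that of Ccl3 and Ccl4 on the vertical axis, both log scales, and dotted lines at ratios of 1, 2 and 4. The KO libraries lie lower (116 to 191 CPM of Ccl3 plus Ccl4) than the WT libraries (327 to 613 CPM), but both genotypes have libraries near ratio 2 and the M libraries of both reach ratio 4.

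Ccl3 and Ccl4 also differed from each other in balance. The ratio of Ccl3 to Ccl4 CPM came to 1.28, 1.11 and 1.4996 in the M_WT libraries and to 1.66, 2.82 and 1.67 in the M_KO libraries, so that all 3 M_KO libraries were above the M_WT libraries. The F pair went the other way, at 1.74 in F_WT and 1.49 in F_KO. This ratio was looked at after the values were seen and was not tested.

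Ccl6 and Ccl9, the CCR1 ligands with the highest levels, did not separate the genotypes. Ccl6 was at 1017, 2154 and 1270 CPM in M_WT_5643, M_WT_6258 and M_WT_6255 and at 1137, 974 and 3060.2 CPM in M_KO_5944, M_KO_5645 and M_KO_5642. A single library, M_KO_5642, was high, and the log2 fold change of 0.22 (SE 0.50, edgeR adjusted p = 0.906) was -0.50 without it. M_KO_5642 was also the library with the lowest summed level of large resident peritoneal macrophage markers, 2885 CPM against 6614 to 13518 CPM in the other M libraries. It had the highest sum of monocyte markers, 331 CPM against 123 to 178 CPM. F_WT, with the next highest Ccl6 (2493 CPM against 967 in F_KO), had the next lowest resident marker sum, 5329 CPM against 11421 in F_KO. The part of resident macrophages and monocytes in the level of Ccl6 was not tested.

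Ccl9 had the narrowest range over the 8 libraries, with a highest value 2.35 times the lowest, at 1680.1, 1975 and 1190 CPM in M_WT and 1583, 842 and 1439 CPM in M_KO in the same order. Its log2 fold change was -0.33 (SE 0.30, edgeR adjusted p = 0.738). Ccl6 exceeded Ccl9 by a CPM ratio of 2.13 in M_KO_5642 and 1.57 in F_WT, and the ratio was between 0.605 and 1.157 in the other 6 libraries. The 2 genes lie side by side, and the longest run of bases their promoter windows share is 13 (gccctccacttcc).

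In the F pair every one of the 9 members was lower in F_KO than in F_WT, a direction shared by 49.3% of all genes tested. Log2 differences of CPM among the 7 tested members ran from -1.89 (Ccl2) to -0.80 (Ccl5), and 5 of the 7 tested members were below -1, where 5.38% of all genes tested were. Ccl6 and Ccl9, which did not separate the M groups, were at ratios of 0.388 and 0.543 in this pair. With 1 library per genotype these values describe 2 animals, and F_KO against F_WT cannot be told apart from a difference between any 2 libraries.

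Of the other 11 CC chemokine genes listed, 4 were tested. EdgeR called 0, with 2 lower at an unadjusted p under 0.05, against 4.42% of all genes tested. DESeq2 called 2, Ccl22 and Ccl17, both lower in M_KO, against 0.536% of all genes called lower. Ccl22, a CCR4 ligand made by macrophages and dendritic cells, was at 22.5, 47.0 and 7.16 CPM in M_WT and 6.42, 3.52 and 5.69 CPM in M_KO (DESeq2 adjusted p = 0.0140). Ccl17, the other CCR4 ligand, was at 1.38, 3.30 and 0.812 CPM against 0.341, 0.259 and 0.356 CPM (DESeq2 adjusted p = 0.0372). In the F pair Ccl17 was higher in F_KO (2.60 CPM) than in F_WT (1.29 CPM), while Ccl22 was lower (10.8 against 16.8 CPM). Both were highest in M_WT_6258, and both lost their call without it, with DESeq2 adjusted p-values of 0.392 for Ccl22 and 0.701 for Ccl17. Ccl22 also lost it without M_KO_5645 (0.112), and Ccl17 kept it only without M_WT_6255 (0.0171). Without Cd209a, the dendritic cell marker sum was 14.4, 15.2 and 10.9 CPM in M_WT_5643, M_WT_6258 and M_WT_6255, the order of both genes there. It was 8.23, 10.7 and 11.9 CPM in M_KO_5944, M_KO_5645 and M_KO_5642, an order that neither gene had. With Cd209a, M_WT_6255 had the next highest sum and the lowest Ccl22 and Ccl17 of M_WT. The part of dendritic cells in these levels was not tested. Ccl24, a CCR3 ligand that draws eosinophils, was at 421 to 557 CPM in M_WT, at 468 and 432 CPM in M_KO_5944 and M_KO_5642, and at 1165 CPM in M_KO_5645. It was higher in F_KO (2490 CPM) than in F_WT (736 CPM), opposite to the members. Its log2 fold change of 0.43 did not pass either test (edgeR adjusted p = 0.730, DESeq2 adjusted p = 0.882).

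Of 14 CC chemokine receptor genes, 8 were tested. EdgeR called 0, with 2 lower and 1 higher at an unadjusted p under 0.05, against 4.42% and 5.47% of all genes tested. DESeq2 called 1, Ccrl2, lower in M_KO, against 0.536% of all genes called lower. Ccrl2, which binds the chemoattractant chemerin without signalling like a classical receptor, was at 270, 333 and 340 CPM in M_WT and 208, 181 and 183 CPM in M_KO (DESeq2 adjusted p = 0.00982). Its call was lost without M_WT_6258 (DESeq2 adjusted p = 0.274), M_WT_6255 (0.224) or M_KO_5645 (0.0975). Ccr1 and Ccr2 were called by neither tool. Ccr1 was at 82.3 to 114 CPM in M_WT and 63.0 to 167 CPM in M_KO. Ccr2 was at 24.1 to 43.1 CPM in M_WT and 43.4 to 116 CPM in M_KO, with no overlap, at an edgeR adjusted p of 0.496. Of all genes tested, 8.99% had no overlap with M_KO higher. In the F pair Ccr2 was lower in F_KO (43.0 CPM) than in F_WT (52.7 CPM). Ccr8, named after its values were seen as the receptor of Ccl8, had no count in any library.

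Among 14 genes that induce these chemokines or feed back on NF-kB, edgeR called 0. At an unadjusted p under 0.05 (edgeR) 3 were lower, against 4.42% of all genes tested. DESeq2 called 2, Tnf and Il1a, both lower in M_KO, against 0.536% of all genes called lower. Tnf, a cytokine that induces CC chemokines, was at 261, 266 and 193 CPM in M_WT and 128, 113 and 145 CPM in M_KO (DESeq2 adjusted p = 0.00687). Il1a, encoding interleukin-1 alpha, was at 1169, 693 and 599 CPM against 355, 264 and 81.6 CPM (DESeq2 adjusted p = 0.0304). Leaving out M_WT_5643, M_WT_6258 or M_KO_5645 ended the Tnf call (DESeq2 adjusted p of 0.0518, 0.199 and 0.0641). The Il1a call held without M_KO_5944 or M_KO_5642 and was lost without each of the other 4 M libraries (DESeq2 adjusted p from 0.0649 to 0.162). The NF-kB subunits Nfkb1 (edgeR log2 fold change -0.39) and Rela (-0.03), named after their values were seen, did not pass either test. Over the 14 genes the median of log2 fold changes was -0.27, against -1.32 for the 7 tested members and 0.01 for all genes tested.

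None of the 6 regulators of mRNA decay was called by edgeR or DESeq2, and 0 were at an unadjusted p under 0.05. Zfp36, which binds and destabilises cytokine and chemokine mRNAs, was at 666 to 777 CPM in M_WT and 411 to 852 CPM in M_KO. Zc3h12a, an RNase that cuts inflammatory mRNAs, was at 138 to 254 CPM in M_WT and 76.8 to 160.2 CPM in M_KO. Of 5 proteases that trim CC chemokines, 0 were called by either tool, with 0 lower and 1 higher at an unadjusted p under 0.05. Of all genes tested, 5.47% were higher at that threshold (edgeR). Mmp14 was at 147 to 274 CPM in M_WT and 108 to 223 CPM in M_KO. Mmp9, the 1 that was higher, was at 6.39 to 16.5 CPM in M_WT and 16.6 to 35.0 CPM in M_KO.

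The genes most like Ccl4 over the 8 libraries, by Pearson's r of log2 CPM among 8131 protein-coding genes, were H3f3b (r = 0.98), Mospd1 (0.97), Cd44 (0.96) and Slfn2 (0.96). Those most like Ccl3 were Rif1 (0.96), Ezr (0.94), Dnajb6 (0.94) and Rcn2 (0.94), and those most like Ccl2 were Exoc5 (0.97), Erlin1 (0.94), Mrps18c (0.91) and Pkib (0.91). They were picked as the highest of many values over 8 libraries that share their genotypes, so r is given with no p. Cd44, an adhesion receptor for hyaluronan, shows the Ccl4 pattern at 820, 1092 and 810 CPM in M_WT and 653, 463 and 453 CPM in M_KO. Its differences are smaller than those of Ccl4 (log2 fold change -0.80, edgeR adjusted p = 0.412).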

How the data were processed

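RNA of 8 libraries was analysed from processed files. Per the labels, libraries were made with a NEBNext Ultra kit, and DESeq2 1.16.1, featureCounts 1.5.0-p3 and HISAT2 2.0.5 are named, beside GRCm38 and mm10, per the submitters' processing notes. The sources used here do not give the annotation release, the strand setting or the handling of multi-mapping reads. The authors deposited raw counts per gene, FPKM values (scaled by the authors to gene length and library size), and a comparison table with a signal of scaled counts per library, log2 fold changes and p-values made by the authors. Columns without a sample numbered 0.

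Raw counts of the 6 M libraries were tested with edgeR 4.0.16 (R 4.3.3; quasi-likelihood test, legacy set to false, TMM, default filter on genotype, 13646 genes, 4 residual degrees of freedom) with Benjamini-Hochberg adjustment over all genes. Standard errors come from the F statistic. DESeq2 1.42.0 with default settings was an alternative; others were upper-quartile and RLE scaling, no filter or 1 CPM in at least 3 libraries, limma 3.58.1 (voom, log2(FPKM + 1), log2(FPKM + 0.1)), robust and legacy dispersion, all 8 libraries with the letter as a term, a term for animal numbers beginning with 56, and leaving out each M library. Log2 CPM used a prior count of 2. F_WT and F_KO were compared without a test. The rule for named genes took all members, fixed lists with up to 4 genes each, and the 4 genes most like Ccl4, Ccl3 and Ccl2 with a mean log2 CPM of at least 3. The members and lists were chosen with earlier results of these data known. The edgeR, limma and DESeq2 p-values weigh a group difference against the spread between these libraries, which is estimated in part over all genes. Not every receptor counted is reported here by name.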

Additional observations from a re-analysis of the deposited data

How the results depend on the processing

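EdgeR called 3 genes in M_KO against M_WT and 0 members. DESeq2 called 181 genes and 2 members (Ccl3 and Ccl4). With all 8 libraries and the letter as a term edgeR called 1 gene. Leaving out 1 M library moved the edgeR count between 0 (without M_WT_6255) and 17 (without M_WT_5643), with 0 members each time. Leaving out 1 M library with DESeq2, a step added after seeing the data, moved its count between 67 (without M_WT_6258) and 555 genes (without M_KO_5944) and between 1 and 3 members: Ccl4 alone without M_WT_6258, and Ccl5 added without M_KO_5944. The other DESeq2 counts were 305, 95, 99 and 231 genes. The log2 fold change of Ccl6 changed sign, to -0.16 with all 8 libraries and to -0.50 without M_KO_5642 (edgeR and DESeq2), against 0.58 without M_WT_6258; the cause was not tested. The members' edgeR or limma adjusted p ran from 0.107 to 0.995 over the alternatives other than DESeq2, for Ccl3 from 0.177 to 0.896 and for Ccl4 from 0.107 to 0.744. The difference in the log2 ratio of Ccl3 plus Ccl4 to the monocyte attractants ran from -0.96 to -0.18 without 1 library. No paired analysis was possible because no animal number is shared between groups. Depth limits Ccl8 and Ccl12 alone among the members.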
